A study of Mus musculus with 27 samples.

Results

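Lipid nanoparticles (LNP) carrying siRNA against luciferase, a gene that mice do not have, were the non-targeting control of a study of hyaluronan synthase 2 (Has2) in liver fibrosis caused by carbon tetrachloride (CCl4). The comparison described here asked what this control particle (siLuc-LNP) changed in injured livers. It set the 4 livers of CCl4 + siLuc-LNP mice against the 2 livers of mice given CCl4 alone, which were chosen by their labels and are 6 of the 27 livers sequenced. A gene was tested if its count averaged 10 or more across the 27 libraries, which left 14114 of 55414.

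All mice were female Balb/c mice, 8 weeks old at the start, and RNA was taken from total liver homogenate. CCl4 mice received CCl4 into the peritoneum for 2 weeks. CCl4 + siLuc-LNP mice also received siLuc-LNP by the tail vein, from 2 days before the first CCl4 and repeated through those weeks, with a higher first dose. The labels give no tail vein injection for the CCl4 mice, so the particle, its cargo and the injection cannot be told apart. The uninjured counterparts were 3 siLuc-LNP mice, given olive oil and the particle, and 4 control mice, given olive oil and a tail vein injection of PBS. Levels in CCl4 + siHAS2-LNP mice (the same particle with siRNA against Has2, n = 4) and in CCl4 + 4MU mice (4-methylumbelliferone by daily gavage, no particle, n = 4) are given beside some genes. Those groups share the 2 CCl4 mice as their reference and were not tested here. The labels name separate samples, but say nothing of cages or litters.

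Intravenous LNP collect in the liver, where they bind apolipoprotein E in plasma and enter hepatocytes through lipoprotein receptors. Kupffer cells, the resident macrophages of the sinusoids, also take up particles and debris through scavenger receptors such as Marco. CCl4 is activated by cytochrome P450 enzymes in hepatocytes around the central vein, kills these cells, and is followed by compensatory division of the surviving hepatocytes and by scar formation from stellate cells.

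Total counts of the 6 libraries were 18249896 to 25641808, and mitochondrial genes took 1.42 to 5.25% of them. CCl4 + siLuc-LNP mouse 3 stood apart in 1 respect. The ribosomal RNA gene Rn18s-rs5 held 15.0% of its counts, against 0.0534 to 0.353% in the other 5 libraries, and Lars2 held 1.71%. Leaving these 2 genes out, an alternative chosen after seeing the data, gave the same 35 genes past the threshold. CCl4 + siLuc-LNP mouse 4 stood nearer to the CCl4 mice than its group for many genes, and list counts that moved by more than 2 genes without it are given both ways.

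In CCl4 + siLuc-LNP against CCl4 livers, 35 of 14114 genes passed an adjusted p of 0.05 (0.248% of the genes tested), of which 8 rose (0.0567%) and 27 fell (0.191%). Marco and Cd163, both macrophage receptors, fell most among genes of at least 1 CPM (the read count scaled to a common library total), and E2f1 and Rpa2, both of the DNA replication list, fell as well. The rises included Ciita, Ahr and Cfhr2. The mice of the 2 groups did not overlap for 34 of the 35, beside 6.95% of all genes higher and 7.33% lower. Genes were named as the largest changes only where the mice did not overlap, so that separation is no added support for them. Without CCl4, siLuc-LNP changed 30 genes (0.213%), of which 12 rose (0.085%) and 18 fell (0.128%). The 2 comparisons share no mouse, and 4 genes passed in both, which is 11.4% of the first list and 13.3% of the second. These 4, Marco, Cd163, Pcolce2 and Kcnj16, were lower with the particle in both.

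Marco (GRCm39 chr1:120402267-120432753, minus strand) is a scavenger receptor of Kupffer cells and other macrophages that binds bacteria and particles. It was 15.0 and 31.5 CPM in the CCl4 mice and 0.0784, 0.540, 0.30 and 0.0347 CPM in the CCl4 + siLuc-LNP mice. Every particle mouse was far below both CCl4 mice. Marco fell by 6.63 on the log2 scale (SE 0.682), 98.9-fold, with an adjusted p of 6.48e-06 by edgeR's quasi-likelihood test. Without CCl4 it was 2.90 to 9.56 CPM in control and 0.0572, 0.342 and 0.439 CPM in siLuc-LNP mice, a log2 fold change of -4.46 (SE 0.719, adjusted p = 0.00232). In CCl4 + siHAS2-LNP mice, which also carried particle, it was 0 to 0.281 CPM. In CCl4 + 4MU mice, which did not, it was 9.67 to 33.5 CPM, which overlapped with the CCl4 mice.

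Cd163 (chr6:124281606-124307560, plus strand), the macrophage receptor for haptoglobin bound to haemoglobin, was 4.19 and 9.04 CPM in the CCl4 mice. It was 0.196, 0.617, 0.480 and 0.173 CPM in the CCl4 + siLuc-LNP mice, so the groups stood well apart. It fell by 4.2 on the log2 scale (SE 0.441, 18.4-fold, adjusted p = 6.48e-06). Uninjured mice showed a fall of the same size, -4.21 on the log2 scale (SE 0.428, adjusted p = 6.88e-06), from 7.73 to 19.9 CPM in control to 0.439 to 1.14 CPM in siLuc-LNP mice. CCl4 + siHAS2-LNP mice had 0.241 to 0.587 CPM and CCl4 + 4MU mice 4.99 to 7.23 CPM.

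**Figure D1:**
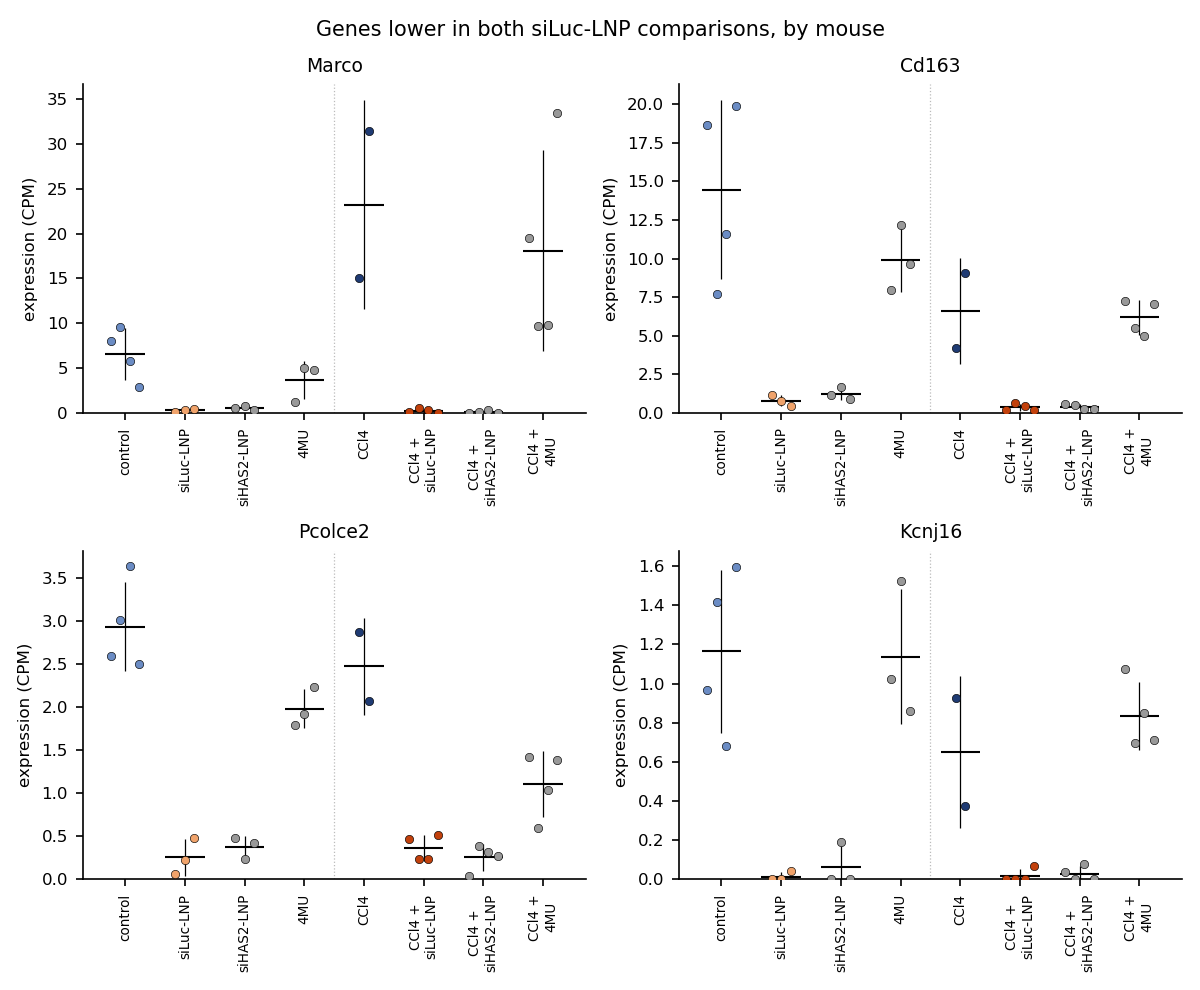
Expression in CPM (vertical axis, linear, from 0) of Marco, Cd163, Pcolce2 and Kcnj16 in each mouse (points) of the 8 groups (horizontal axis), with the group mean (bar) and SD (line). Every CCl4 + siLuc-LNP mouse lies below both CCl4 mice for each gene, and every siLuc-LNP mouse below every control mouse.

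Pcolce2 (chr9:95519466-95580207, plus strand), which enhances the cleavage of procollagen, was 2.87 and 2.07 CPM in the CCl4 mice and 0.470, 0.231, 0.240 and 0.520 CPM in the CCl4 + siLuc-LNP mice. The groups did not overlap, and it fell by 2.70 on the log2 scale (SE 0.464, adjusted p = 0.0112). The change without CCl4 was -3.42 (SE 0.495, adjusted p = 0.000754). In CCl4 + 4MU mice Pcolce2 was 0.598 to 1.42 CPM, below both CCl4 mice and above every CCl4 + siLuc-LNP mouse.

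Kcnj16 (chr11:110858843-110927617, plus strand), an inwardly rectifying potassium channel subunit, was named after its values were seen, because it lies under the abundance set for named genes. It had 29 counts over the 2 CCl4 mice and 2 counts over the 4 CCl4 + siLuc-LNP mice, both in mouse 4. The level was 29.9 times higher in CCl4 mice, with a 95% counting interval of 7.55 to 258 that leaves out the spread between mice (adjusted p = 0.0167). Without CCl4 the counts were 98 in control and 1 in siLuc-LNP mice, a ratio of 67.1 (interval 11.8 to 2675).

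Ccr3, the eotaxin receptor of eosinophils, was 1.80 and 2.83 CPM in the CCl4 mice and 0.666, 0.694, 0.240 and 0.277 CPM in the CCl4 + siLuc-LNP mice. It fell by 2.27 on the log2 scale (SE 0.454, adjusted p = 0.0299). In uninjured mice the difference was -1.25 (SE 0.419, adjusted p = 0.423), below the threshold.

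No other Kupffer cell marker passed. Of 18 Kupffer genes tested, none rose and 2 fell, with a median log2 fold change of -0.12, beside 0.01 over all 14114 genes. The summed level of the list was 733 to 769 CPM in CCl4 and 636 to 797 CPM in CCl4 + siLuc-LNP mice, so it overlapped. The mean log2 level of the list relative to control weighs each gene equally and includes Marco and Cd163. It was -0.31 and -0.15 in CCl4 and -0.84, -0.52, -0.85 and -0.77 in CCl4 + siLuc-LNP mice, without overlap. The level was not computed without those 2 called genes, so its separation is no support beyond their calls. Clec4f, the lectin that marks Kupffer cells, was 114 and 81.5 CPM in CCl4 and 38.0, 68.0, 46.0 and 55.5 CPM in CCl4 + siLuc-LNP mice (log2 fold change -0.91, SE 0.318, adjusted p = 0.183). Vsig4, a complement receptor of the same cells, was 17.4 and 30.3 CPM against 8.58, 11.3, 9.12 and 12.4 CPM (-1.20, SE 0.380, adjusted p = 0.142). Both were lower in every particle mouse, but neither passed the threshold. Timd4 and Cd5l, named after their values were seen, had log2 fold changes of -0.18 and -0.48. In all, 5 of the 18 genes were lower and 1 higher without overlap of the mice, as were 7.33% and 6.95% of all genes tested. In bulk RNA, fewer cells of a type and less RNA per cell cannot be told apart.

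Of 18 genes for particle uptake and lipoprotein receptors, Marco alone fell and none rose (median 0.06). Cav1, the caveolae protein, was -1.21 (adjusted p = 0.264), Lipc, hepatic lipase, was 0.89 (adjusted p = 0.192) and Rab7, a regulator of late endosomes, was 0.38 (adjusted p = 0.173). Lysosome and autophagy genes (34 tested, median 0.09) and genes for nucleic acid sensing and small RNA processing (25 tested, median -0.03) had no call. Gla and Map1lc3b were first by p in the former (-0.53 and 0.67) and Irak4 and Dgcr8 in the latter (0.36 and -0.49). Without mouse 4, 2 lysosome and autophagy genes rose and 1 fell, beside 3.17% of all genes higher and 4.36% lower.

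**Figure D2:**
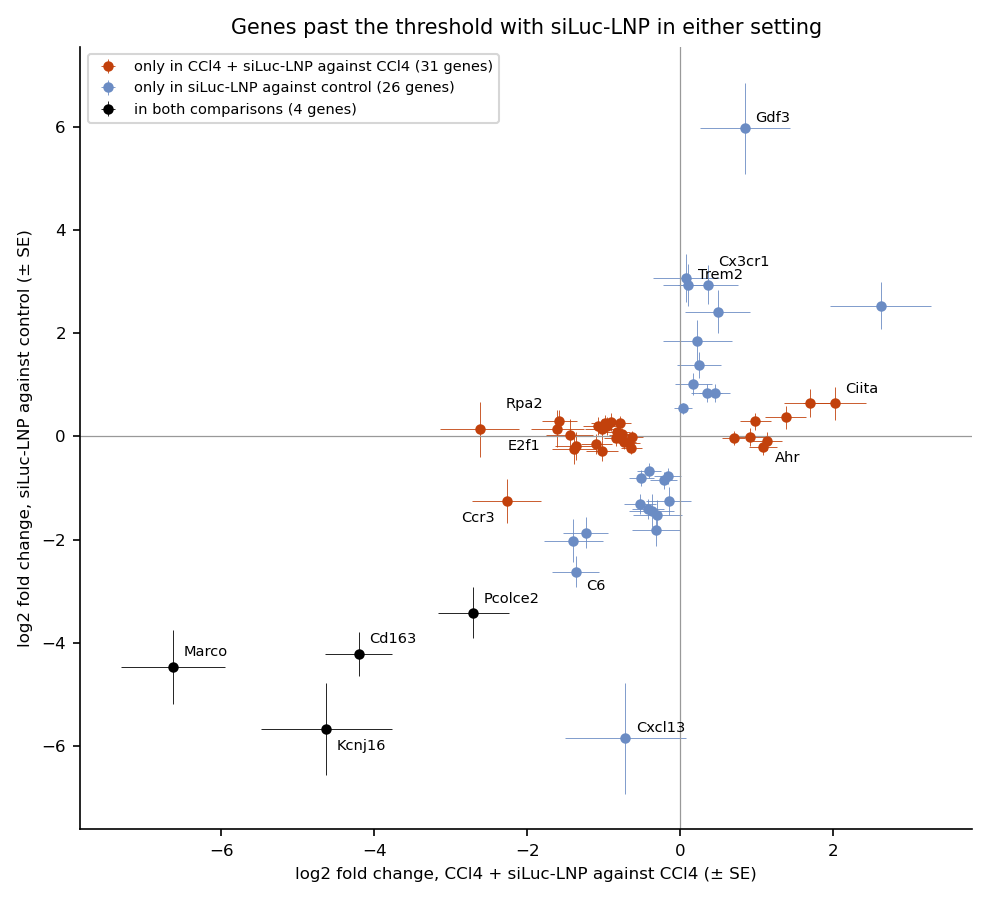
Log2 fold change with siLuc-LNP in CCl4 mice (horizontal axis) against that in uninjured mice (vertical axis), with standard errors (lines), for the genes past the threshold in either comparison (points, coloured by where they passed; the comparisons share no mouse). Marco, Cd163, Pcolce2 and Kcnj16 are low on both axes, whereas on the vertical axis E2f1 is at 0.15, Ahr at -0.09, Rpa2 at 0.30 and Ciita at 0.64, none of them past the threshold there.

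Of the genes that fell, 2 belong to the DNA replication list. In a regenerating liver, E2F transcription factors switch on the genes for origin licensing and DNA synthesis as cells leave rest. E2f1, the founding member, was 27.2 and 35.4 CPM in the CCl4 mice and 9.91, 4.98, 7.56 and 18.5 CPM in the CCl4 + siLuc-LNP mice. It fell by 1.61 on the log2 scale (SE 0.345, 3.05-fold, adjusted p = 0.0398). Rpa2, a subunit of the protein that coats single-stranded DNA, was 39.1 and 48.8 CPM against 15.7, 9.76, 10.9 and 22.4 CPM, and fell by 1.58 (SE 0.228, adjusted p = 0.00147). For both genes each particle mouse lay below both CCl4 mice, and mouse 4 was the highest of its group. Control mice had 1.65 to 3.82 CPM of E2f1 and 8.24 to 10.2 CPM of Rpa2, so Rpa2 in mouse 2 lay within the control range, whereas E2f1 was above it in every particle mouse. The call of E2f1 was lost without CCl4 mouse 2 (adjusted p = 0.309) and without particle mouse 1, 2 or 3 (adjusted p = 0.0920 to 0.145).

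Of 36 DNA replication genes tested, none rose and 2 fell (E2f1 and Rpa2), but 35 had a negative log2 fold change and 14 were lower without overlap, as were 7.33% of all genes. The median was -1.34. Mcm7 and Mcm3, subunits of the replicative helicase, were next by p: Mcm7 was 62.3 and 111 CPM against 31.8, 19.1, 26.2 and 60.7 CPM (-1.33, SE 0.30, adjusted p = 0.0532), and Mcm3 was -1.81 (SE 0.427, adjusted p = 0.0572). Mouse 4 set much of the spread. The mean level of the list relative to control, on a log2 scale, was 2.17 and 3.07 in the CCl4 mice and 1.33, 0.66, 1.07 and 2.3 in the CCl4 + siLuc-LNP mice, so mouse 4 alone lay above the lower CCl4 mouse. Without mouse 4, 29 of the 36 genes fell (median -1.81), beside 4.36% of all genes lower and 3.17% higher in that fit. Without CCl4 mouse 2, the higher of the pair, the median was -0.64. In uninjured mice none of the 36 passed and the median was 0.16.

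**Figure D3:**
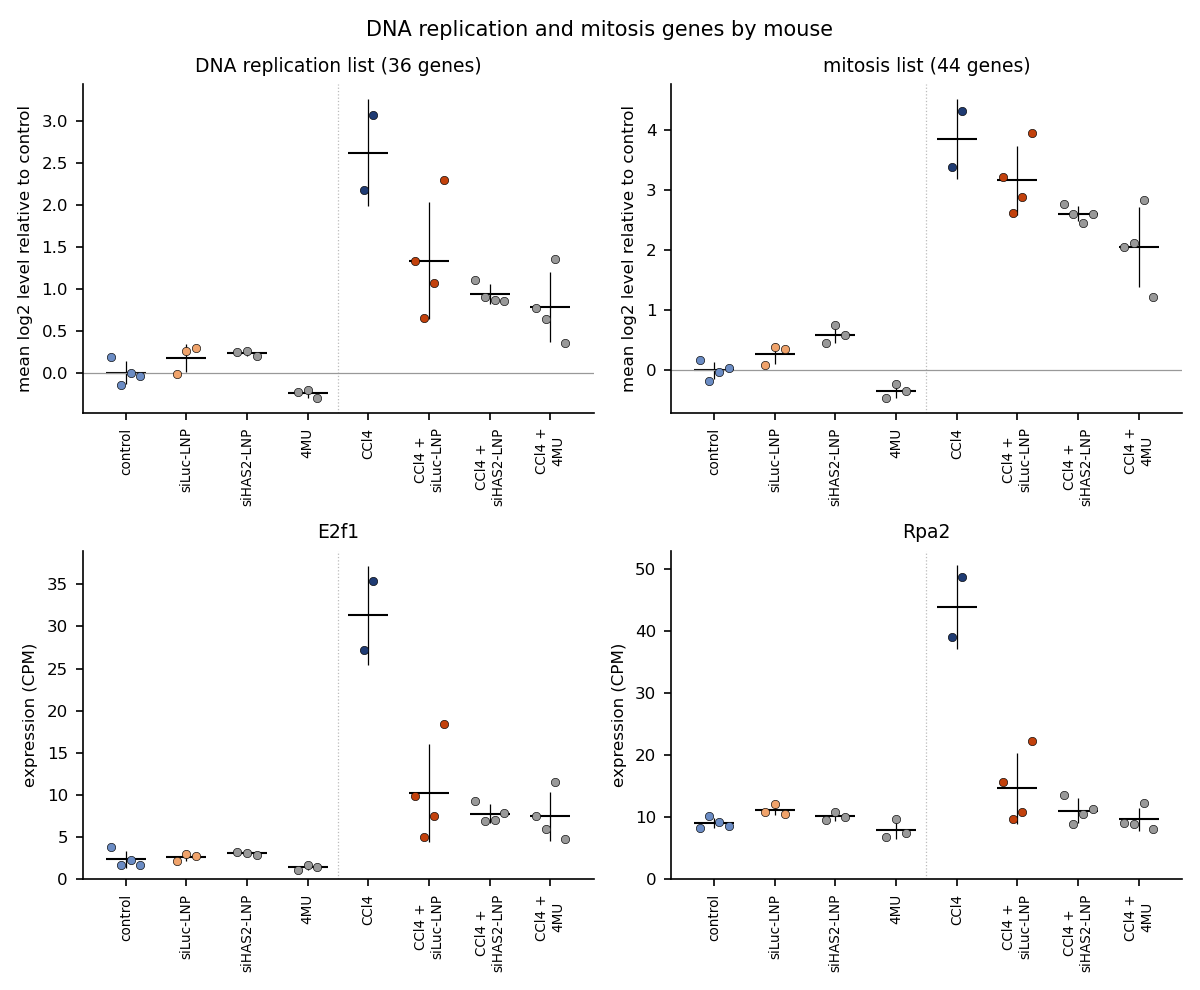
Mean log2 level relative to control of the DNA replication and mitosis lists (top, vertical axes) and expression of E2f1 and Rpa2 in CPM (bottom, linear from 0) in each mouse (points) of the 8 groups, with the group mean (bar) and SD (line). CCl4 + siLuc-LNP mouse 4 is the highest of its group in each plot, and the CCl4 + siHAS2-LNP and CCl4 + 4MU mice are below both CCl4 mice.

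Promoters of the helicase and licensing genes are shown because 13 of the 29 replication genes with a RefSeq promoter window (44.8%) held the E2F motif TTTNNCGC on either strand, against 1602 of 27025 genes (5.93%). Windows ran from 250 bases before to 50 after the start. The sequences below are from RefSeq (GRCm38.p6), each 48 bases upstream of the start and written 5′ to 3′ on the gene's strand, with the motif or its reverse complement in capitals. They were chosen for the match and after their values were seen.
Mcm6 (chr1:128359725-128359772, minus strand): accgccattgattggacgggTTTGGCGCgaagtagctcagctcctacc
Mcm5 (chr8:75109340-75109387, plus strand): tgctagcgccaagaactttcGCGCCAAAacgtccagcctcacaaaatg
Mcm7 (chr5:138172021-138172068, minus strand): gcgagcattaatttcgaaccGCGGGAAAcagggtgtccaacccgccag
Cdc6 (chr11:98907993-98908040, plus strand): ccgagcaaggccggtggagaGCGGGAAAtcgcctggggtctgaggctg
Of the genes past the threshold that fell, 20 of 27 had a window and 1 held the motif (5%), and none of the 4 genes low in both comparisons did. The windows of E2f1 and Rpa2, the called genes of the replication list, did not hold it either. A match of these letters is a description of the window, not a bound site. Cdc6, which loads the helicase, was 10.5 and 27.2 CPM in CCl4 and 2.35, 0.656, 1.98 and 11.5 CPM in CCl4 + siLuc-LNP mice (-2.18, adjusted p = 0.139). Mcm6 was -1.79 (adjusted p = 0.0891) and Mcm5 -1.55 (adjusted p = 0.122). Mouse 4 reached the lower CCl4 mouse for Cdc6 and Mcm5 but not for Mcm6.

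The next 5 genes lie outside that list and are grouped here only by their known roles, after the calls were seen. Each passed in 2 of the 6 fits that left out 1 mouse. Pold1, the catalytic subunit of DNA polymerase delta, was 16.2 and 25.9 CPM in CCl4 and 5.96, 5.90, 7.74 and 13.1 CPM in CCl4 + siLuc-LNP mice (-1.36, SE 0.279, adjusted p = 0.0333). Dut, which removes dUTP, was 32.9 and 40.3 CPM against 16.1, 13.8, 17.1 and 21.5 CPM (-1.10, SE 0.20, adjusted p = 0.0162). Cks1b, a subunit of cyclin-dependent kinases, fell by 1.39 (adjusted p = 0.0358), Tonsl, a repair factor of stalled forks, by 1.44 (adjusted p = 0.0398), and Nasp, a histone chaperone, by 1.02 (adjusted p = 0.0454). None of these genes overlapped between the groups. In uninjured mice their log2 fold changes were -0.25 to 0.14.

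No mitosis gene passed. Of 44 tested none was called, with a median of -0.72 and 43 negative. Spc25, a kinetochore protein, was 41.6 and 58.5 CPM against 25.1, 10.7, 17.8 and 38.5 CPM (-1.12, SE 0.345, adjusted p = 0.133), and Aurka, a spindle kinase, was -1.07 (adjusted p = 0.144). Without mouse 4, 10 of the 44 fell (median -1.08), beside 4.36% of all genes. Without CCl4 mouse 2 none passed, the median was -0.07 and 12 of the 44 were positive. In uninjured mice the median was in the other direction, 0.70, again with no call. In CCl4 + siHAS2-LNP and CCl4 + 4MU mice, E2f1 was 6.93 to 9.32 and 4.84 to 11.5 CPM and Rpa2 8.89 to 13.6 and 8.19 to 12.4 CPM.

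The remaining genes that fell were in none of the lists. Gmppb, which makes GDP-mannose, was 39.6 and 47.3 CPM in CCl4 and 18.4, 21.8, 17.9 and 24.3 CPM in CCl4 + siLuc-LNP mice (-1.08, SE 0.193, adjusted p = 0.0131). Tssc4, a factor of spliceosome assembly, was 27.2 and 27.5 CPM against 13.9, 14, 14 and 13.1 CPM (-0.99, SE 0.175, adjusted p = 0.0131), with very little spread in either group. Hars1, the tRNA synthetase for histidine, was 74.2 and 77.3 CPM against 44.3, 41.2, 40.6 and 52.5 CPM (-0.76, SE 0.122, adjusted p = 0.00607). Decr1, a mitochondrial enzyme of fatty acid oxidation, was 173 and 177 CPM against 102, 112, 95.3 and 97.8 CPM (-0.78, SE 0.145, adjusted p = 0.0167). All 4 stood apart between the groups in every mouse. The others, named after their values were seen, were Pgm3, Tinf2, Tubgcp2, Nup85, Exosc2, Rtn4ip1, Rint1, Rbbp4, Tfam and Ncbp1, at -1.02 to -0.62, and Cntnap1. Cntnap1 was the only 1 of the 35 whose groups overlapped. It was 14.7 CPM in CCl4 mouse 2 and 1.20 to 1.39 CPM in the other 5 mice, and without CCl4 mouse 2 its log2 fold change was -0.06.

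Among the genes that rose, Ciita, the master activator of MHC class II genes (chr16:10297923-10347694, plus strand), had the largest rise of the named genes. It was 1.12 and 0.83 CPM in the CCl4 mice and 5.41, 4.51, 2.94 and 2.84 CPM in the CCl4 + siLuc-LNP mice. The groups did not overlap, and Ciita rose by 2.02 on the log2 scale (SE 0.416, 4.05-fold, adjusted p = 0.0334). Control mice had 1.92 to 3.84 CPM, so the CCl4 mice were below control and the particle mice within or above it. In uninjured mice siLuc-LNP gave 0.64 (SE 0.321, adjusted p = 0.761). The call was lost without CCl4 mouse 2 (adjusted p = 0.313) and without particle mouse 1, 2 or 3 (adjusted p = 0.0522 to 0.0990).

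Of 8 genes of MHC class II presentation, Ciita alone passed, none fell, all 8 were positive and 7 were higher without overlap (median 1.13), as were 6.95% of all genes. H2-Ab1, an MHC class II beta chain, was 13.8 and 9.08 CPM in CCl4 and 34.6, 37.5, 29.7 and 20.2 CPM in CCl4 + siLuc-LNP mice (1.42, SE 0.467, adjusted p = 0.159). H2-DMa and H2-DMb1, which load peptide, were 0.95 (adjusted p = 0.188) and 1.21 (adjusted p = 0.219). Mouse 4 was the lowest of its group for H2-Ab1 and H2-DMa, and without it 3 of the 8 rose, beside 3.17% of all genes. In uninjured mice all 8 were positive too, with a median of 0.67 and no call. The summed level was 69 to 118 CPM in CCl4, 138 to 241 CPM in CCl4 + siLuc-LNP, 79 to 102 CPM in CCl4 + siHAS2-LNP and 124 to 436 CPM in CCl4 + 4MU mice. The CCl4 + siHAS2-LNP mice, given the same particle, lay within the range of the CCl4 mice. B cells and dendritic cells carry MHC class II, and members of their lists moved in both directions. Log2 fold changes ran from -0.45 to 0.82 in the B and plasma cell list and from -1.11 to 1.15 in the dendritic cell list. B and plasma cell genes (9 tested, median 0.16) summed to 21.9 to 24.1 CPM in CCl4 and 16.2 to 33.0 CPM in CCl4 + siLuc-LNP mice, and dendritic cell genes (10 tested, median 0.01) to 531 to 562 and 436 to 704 CPM, with no call in either list. The part of these cells, or of other cells that carry MHC class II, in the result was not tested.

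**Figure D4:**
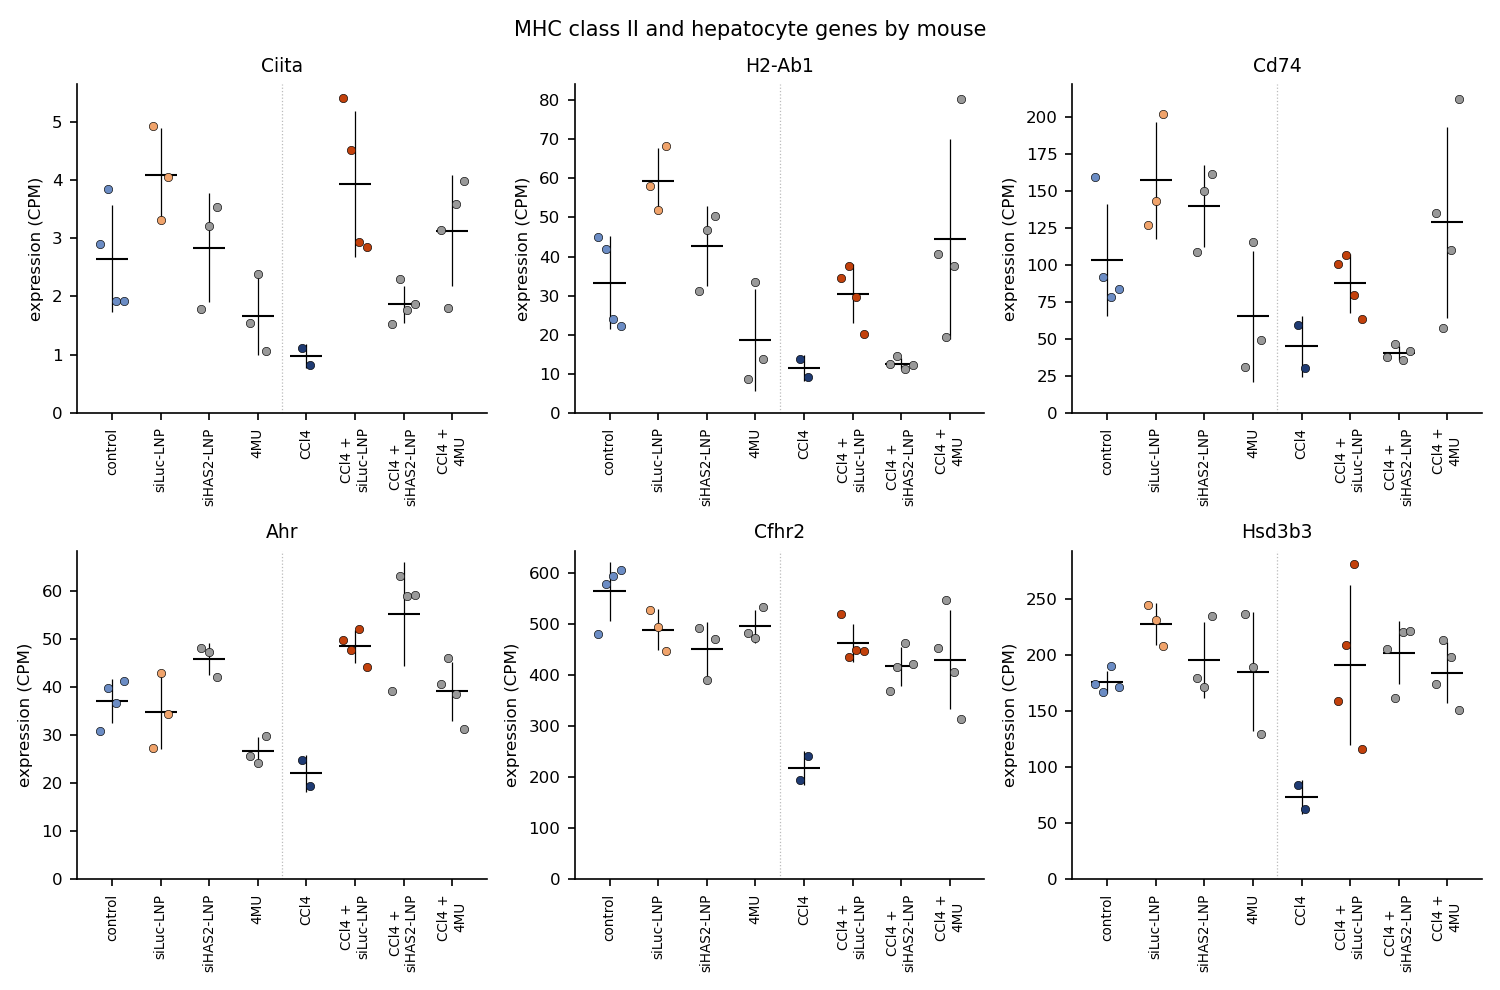
Expression in CPM (vertical axis, linear, from 0) of 3 MHC class II genes (top) and of Ahr, Cfhr2 and Hsd3b3 (bottom) in each mouse (points) of the 8 groups (horizontal axis), with the group mean (bar) and SD (line). In each plot every CCl4 + siLuc-LNP mouse lies above both CCl4 mice.

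Ahr, the receptor that senses aromatic hydrocarbons and drives Cyp1a genes, was 24.8 and 19.4 CPM in CCl4 and 49.8, 47.6, 52.0 and 44.2 CPM in CCl4 + siLuc-LNP mice. It rose by 1.13 on the log2 scale (SE 0.20, adjusted p = 0.0131), with the particle mice above the 30.8 to 41.1 CPM of control mice. Cfhr2 (chr1:139731903-139786486, minus strand), a liver protein related to complement factor H, was 195 and 242 CPM against 520, 437, 450 and 448 CPM and rose by 1.08 (SE 0.186, adjusted p = 0.0112). Hsd3b3, a steroid dehydrogenase, was 84.5 and 62.7 CPM against 159, 210, 282 and 116 CPM and rose by 1.38 (SE 0.271, adjusted p = 0.0277). The groups stood apart for all 3. S1pr1, the endothelial receptor for sphingosine 1-phosphate, rose by 0.91 (SE 0.20, adjusted p = 0.0475) and H3f3a, a histone H3.3 gene, by 0.70 (SE 0.150, adjusted p = 0.0398). Cfhr2, Hsd3b3 and H3f3a have close copies in the genome, so their counts are uncertain. A predicted gene, Gm49492, and an identifier with no symbol in the annotation were the other 2 of the 8.

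The hepatocyte gene lists held a single call. In the list of 47 cytochrome P450 and conjugation genes, Ahr alone rose and none fell. Ahr is a receptor and not an enzyme of either kind, and no other gene of that list passed. Without mouse 4, 6 of the 47 rose, beside 3.17% of all genes. With every mouse kept, 41 were positive and the median was 0.42, or 0.27 without CCl4 mouse 2. Sult1a1, a sulfotransferase, was 0.81 (adjusted p = 0.116) and Cyp2e1, the main enzyme that activates CCl4, 1.21 (adjusted p = 0.186). Of 14 pericentral hepatocyte genes none passed (median 0.86), though 5 were higher without overlap, beside 6.95% of all genes. In that list Lect2, a target of the Wnt pathway, was 0.83 (adjusted p = 0.0750) and Axin2, its feedback inhibitor, 1.28 (adjusted p = 0.0799). The pericentral list summed to 1154 to 2243 CPM in CCl4, 1909 to 3882 CPM in CCl4 + siLuc-LNP and 9478 to 12376 CPM in control mice, so the particle mice remained far below control and mouse 4 overlapped with the CCl4 mice. Without mouse 4, 7 of the 14 rose, beside 3.17% of all genes, and without CCl4 mouse 2 none rose and the median was 0.63.

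No gene passed in the lists of periportal, urea cycle and amino acid genes (18 tested, median 0.51, led by Otc, 0.82, and Gls2, 1.12), major plasma proteins (18, 0.36, led by Ahsg, 0.69, and Apoa2, 1.15), complement and coagulation proteins (35, 0.30), hepatocyte markers (7, 0.33), cholesterol synthesis and uptake (25, 0.37) or fatty acid and triglyceride synthesis (18, 0.28). Without mouse 4, 3.17% of all genes rose and 4.36% fell. In that fit 5 periportal, 5 plasma protein, 7 complement and coagulation and 6 bile acid genes rose. So did 2 hepatocyte marker genes and 1 fatty acid synthesis gene, while 1 complement gene fell. Without CCl4 mouse 2 none of these passed, and the medians were 0.14 for periportal genes, 0.15 for plasma proteins, 0.05 for complement and coagulation and -0.02 for hepatocyte markers. Ttr and Hrg, both plasma proteins of hepatocytes, were 0.89 (SE 0.316, adjusted p = 0.190) and 0.88 (SE 0.312, adjusted p = 0.192). In the cholesterol list 23 of 25 genes were positive, yet the lowest adjusted p was 0.336, for Tm7sf2. Without mouse 4, 15 of the 25 were positive and the median was 0.09. The list's mean log2 level relative to control was -0.65 and -0.55 in CCl4 and -0.07, -0.28, -1.57 and 0.27 in CCl4 + siLuc-LNP mice. Bile acid genes (27, 0.11) included Cyp7a1, the rate-limiting enzyme of bile acid synthesis, at 2.11 (adjusted p = 0.111). The hepatocyte markers summed to 77418 to 133123 CPM in CCl4 and 111857 to 153877 CPM in CCl4 + siLuc-LNP mice, and the share of hepatocyte RNA in the changes above was not tested. In the complement list C6, a subunit of the membrane attack complex, ran the other way. It was 6.57 and 6.33 CPM in CCl4 and 1.61, 2.70, 2.70 and 2.98 CPM in CCl4 + siLuc-LNP mice (-1.37, SE 0.305, adjusted p = 0.0532), just outside the threshold, and it fell by 2.62 in uninjured mice (adjusted p = 2.97e-05). PPAR-alpha and fatty acid oxidation targets (27 tested, no call) had a median of -0.27, which was -0.02 without CCl4 mouse 2. Without mouse 4, 3 of the 27 fell, beside 4.36% of all genes. With every mouse kept, Vnn1 was -1.53 (adjusted p = 0.0695) and Cyp4a10 -2.49 (adjusted p = 0.0963).

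No endoplasmic reticulum chaperone passed. Of 20 tested none was called, 19 were negative and the median was -0.46. Creld2 was 70.8 and 108 CPM in CCl4 and 45.7, 30.4, 24.9 and 58.6 CPM in CCl4 + siLuc-LNP mice (-1.16, SE 0.265, adjusted p = 0.0568), and Hyou1 was -1.06 (adjusted p = 0.139). Every particle mouse had less Creld2 than either CCl4 mouse. Without mouse 4, 8 of the 20 fell, beside 4.36% of all genes. The ATF4 stress response (18 tested, median 0.12), NRF2 antioxidant genes (24, 0.20), p53 targets (18, -0.21), immediate early genes (17, -0.28) and the circadian clock (18, -0.08) had no call.

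No list of inflammatory genes had a call in CCl4 livers. Of 53 interferon-stimulated genes none was called and 47 were negative (median -0.19), with Isg15 at -0.81 (adjusted p = 0.229) and Dhx58 at -0.43 (adjusted p = 0.287). Without mouse 4, 9 of the 53 fell, beside 4.36% of all genes. Inflammatory cytokines and NF-kB targets (15 tested, median -0.08), chemokines and their receptors (26, 0.18) and acute-phase proteins (28, 0.19) had no call. Ccr3, described above, passed but is not in the chemokine list. Ccl2, the chemokine that recruits monocytes, was 2.38 and 6.89 CPM in CCl4 and 2.08, 1.70, 0.900 and 4.30 CPM in CCl4 + siLuc-LNP mice (-1.03, SE 0.558, adjusted p = 0.414), so the groups overlapped. The interferon-induced gene Bst2 was 323 and 278 CPM against 321, 296, 365 and 217 CPM, with a log2 fold change of -0.0046 (adjusted p = 0.997) whose sign changed between settings. Il6 and Cxcl2 had too few counts to be tested, 0 to 3 and 2 to 13 in each of the 6 livers.

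**Figure D5:**
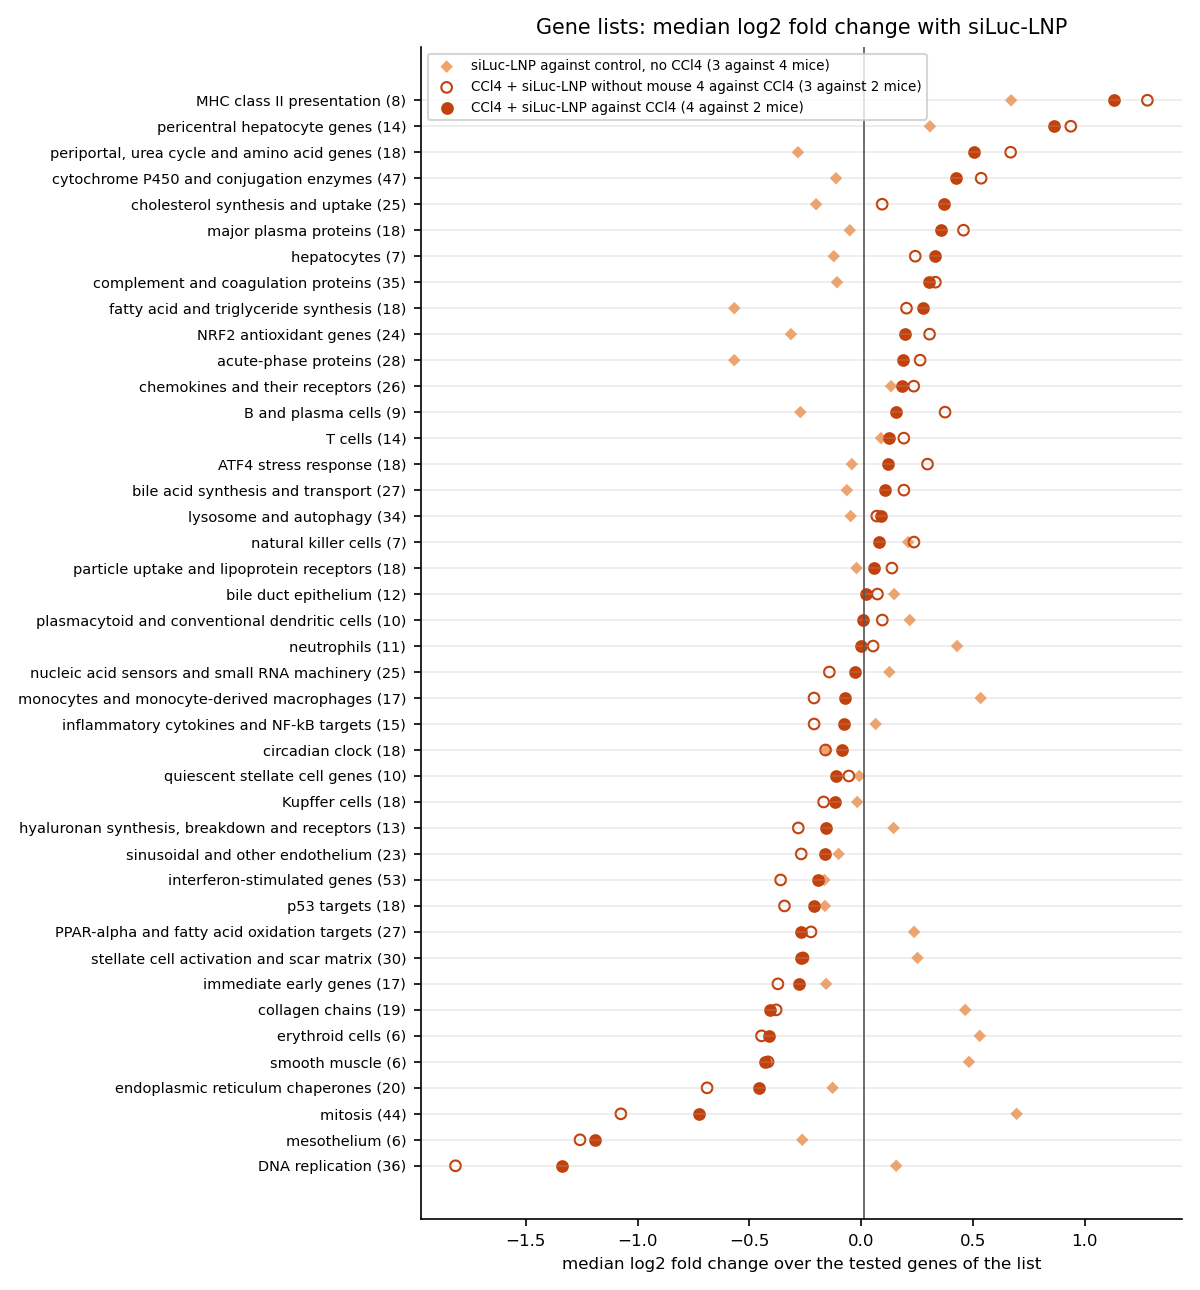
Median log2 fold change (horizontal axis) over the tested genes of each list with at least 6 (rows, number in brackets) in CCl4 + siLuc-LNP against CCl4 mice (filled circles), the same without mouse 4 (open circles) and siLuc-LNP against control mice (diamonds); the vertical line is the median of all genes in CCl4 mice, 0.01. DNA replication (-1.34) and mesothelium (-1.19) lie lowest and MHC class II presentation (1.13) highest.

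Lists of immune cells also had no call beyond Marco and Cd163. Medians were -0.07 for monocytes and monocyte-derived macrophages (17 tested), 0.00 for neutrophils (11), 0.13 for T cells (14) and 0.08 for natural killer cells (7 of 21 tested). Chil3 and Ly6c2, markers of inflammatory monocytes, were -1.82 (adjusted p = 0.209) and -1.21 (adjusted p = 0.306). Spp1, the gene of osteopontin, was 281 and 218 CPM in CCl4 and 677, 234, 277 and 267 CPM in CCl4 + siLuc-LNP mice (0.54, adjusted p = 0.542), where mouse 1 alone was high.

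Genes of fibrosis did not differ past the threshold either. Col1a1 was 154 and 273 CPM in CCl4 and 277, 95.4, 75.0 and 162 CPM in CCl4 + siLuc-LNP mice (-0.49, SE 0.532, adjusted p = 0.735), with the groups intermingled and all 6 far above the 2.60 to 6.32 CPM of control mice. Col3a1 was 196 and 297 CPM against 420, 182, 121 and 274 CPM (0.01, SE 0.474). Acta2, the smooth muscle actin of activated stellate cells, was 8.71 and 41.7 CPM against 12.7, 4.4, 5.82 and 11.2 CPM (-1.56, SE 0.818, adjusted p = 0.397). Collagen chains (19 tested, median -0.41), stellate cell activation and scar matrix (30, -0.27), quiescent stellate cell genes (10, -0.11) and smooth muscle (6, -0.43) had no call. Thbs1, a matrix glycoprotein, was -1.52 (adjusted p = 0.232) and Des, desmin, -0.51 (adjusted p = 0.525). Without CCl4 mouse 2 the medians were 0.14 for collagen chains, 0.14 for smooth muscle and 0.10 for stellate cell activation and scar matrix, all of the opposite sign.

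Genes of hyaluronan synthesis, breakdown and receptors (13 tested, median -0.16, or 0.13 without CCl4 mouse 2) had no call. Their summed level was 695 to 806 CPM in CCl4 and 541 to 670 CPM in CCl4 + siLuc-LNP mice. The mean log2 level relative to control, which weighs each gene equally, overlapped. It was 0.60 and 0.90 in CCl4 and 0.64, 0.52, 0.41 and 0.77 in CCl4 + siLuc-LNP mice. Of the 13 genes, 1 was lower and 0 higher without overlap, as were 7.33% and 6.95% of all genes. The list was led by Ugp2 at -0.53 (adjusted p = 0.318) and Hyal2 at 0.41 (adjusted p = 0.340). Has2 had 2 counts over the CCl4 and 1 count over the CCl4 + siLuc-LNP mice, and Has1 and Has3 had 12 and 1 against 10 and 10, so none of the 3 synthases could be tested.

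Markers of other cells and tissues gave no call. Mesothelium genes, which mark the surface of the organ, had negative log2 fold changes throughout (6 tested, median -1.19, or -0.62 without CCl4 mouse 2). They summed to 22.7 to 48.1 CPM in CCl4 and 7.98 to 24.7 CPM in CCl4 + siLuc-LNP mice, with Upk1b at -1.60 (adjusted p = 0.239) and Msln at -1.29 (adjusted p = 0.287). Endothelium (23 tested, -0.16), bile duct epithelium (12, 0.02), erythroid cells (6, -0.41), adipocytes (2, 0.23), intestinal epithelium (3, 0.21), keratinocytes (1, -0.14), pancreatic acinar cells (1, 0.20) and skeletal muscle (1, 0.51) had no call.

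The difference between the particle's change with and without CCl4 was tested gene by gene. One gene of 14114 passed (0.00709%), and 1411 had an unadjusted p under 0.05. Rpa2 changed by -1.58 with CCl4 and by 0.30 without (difference -1.88, SE 0.315, adjusted p = 0.0452). This call was lost whichever control or siLuc-LNP mouse was left out. It was also lost without CCl4 mouse 2 and without CCl4 + siLuc-LNP mouse 2 or 3. Decr1 differed by -1.04 (adjusted p = 0.0607), Tssc4 by -1.24 (adjusted p = 0.0622) and Hars1 by -0.82 (adjusted p = 0.0816), all lower with CCl4 and near 0 or slightly positive without. Cfhr2 differed by 1.29 (adjusted p = 0.0607), Ahr by 1.22 (adjusted p = 0.0827) and Cyp7a1 by 3.56 (adjusted p = 0.111). These 6 did not pass.

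Trem2, a receptor of lipid-associated macrophages, passed without CCl4 and not with it. It was 0.171 to 0.532 CPM in control and 3.72, 1.48 and 3.25 CPM in siLuc-LNP mice, a rise of 2.93 (SE 0.407, adjusted p = 0.000531). With CCl4 it was already 16.4 and 13.3 CPM, and 24.0, 12.4, 13.4 and 14 CPM with the particle (0.10, SE 0.329, adjusted p = 0.927). The difference was -2.83 (SE 0.522, adjusted p = 0.0607), outside the threshold. For Marco and Cd163 the differences between the settings were -2.17 (SE 1.13, adjusted p = 0.531) and 0.01 (adjusted p = 1.00).

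Of the 35 genes, Marco passed under all 15 alternatives and Cd163 under all but 1, the fit of the 6 compared livers alone (adjusted p = 0.117). Rpa2 was the other gene that passed whichever mouse was left out, but it missed in the fits without the uninjured groups. Ahr, Hars1 and Tssc4 were lost only when CCl4 mouse 2 was left out (adjusted p = 0.191, 0.0535 and 0.0943), Cfhr2 only without CCl4 mouse 1 (adjusted p = 0.0511) and Pcolce2 only without particle mouse 3 (adjusted p = 0.0511), where only refers to the leaving out of 1 mouse. The other 27 genes passed in 1 to 3 of those 6 fits. The number of calls was 1062 without particle mouse 4, all 35 among them, and 24 without CCl4 mouse 2, 7 of the 35 among them. None of the 35 changed sign in any of the 15 alternatives. With 4 mice against 2, an exact permutation test of 1 gene cannot give a two-sided p below 0.0667. Each call used a spread estimated over all 8 groups, and only Marco also passed in the fit of the 6 compared livers.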

How the data were processed

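Raw counts of read pairs per gene, as deposited by the authors, were the only values used. Per the study's methods and the labels, the authors trimmed reads with Trimmomatic 0.39, aligned them to GRCm39 with HISAT2 (version not given in the sources used here) and counted pairs per gene with featureCounts. Multi-mapping reads were not counted. Close copies and overlapping genes are therefore uncertain, and the strand setting is not given in the sources used here. Total counts were 7044386 to 29425937 per library, which limits the precision for genes of low abundance.

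Counts of genes with a mean of at least 10 were scaled by TMM and fitted in edgeR 4.0.16 (R 4.3.3) with 1 mean for each of 8 groups. Contrasts were tested by the quasi-likelihood method with Benjamini-Hochberg adjustment at 0.05. CPM use TMM-scaled totals. List levels are means of log2(CPM + 1) relative to control. Symbols and coordinates came from GENCODE (GRCm39), which matched 54749 of 55414 identifiers. Alternatives used DESeq2 1.42.0 and limma 3.58.1. In data simulated for 4 mice against 2 over 14114 genes, edgeR recovered 42 of 100 genes changed 2-fold and 85 of 100 changed 4-fold, with 10 false calls; for the difference of the contrasts it recovered 18 and 67, with 3 false.

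The comparison, the 47 gene lists (825 genes tested) and the rule for named genes were chosen with earlier results of these data known. The rule took 15 genes of the study's interest, the 12 largest changes in each direction among called genes without overlap and with at least 1 CPM, the 4 genes of smallest p in each list with a call and 2 in each list without, and 5 genes in each direction of the difference. Genes named outside it are said to be so, and a few that it took are not reported here. The replicate numbers do not mark shared animals.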

Additional observations from a re-analysis of the deposited data

Results flagged for a closer look

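Within the 4 CCl4 + siLuc-LNP mice, 12 of 173 measures had 1 mouse set apart from the other 3 by more than Dixon's 95% critical value, where chance gives about 1 in 20. Mouse 4 was low for Tssc4 (13.1 CPM), H2-DMa (4.68 CPM) and the NRF2 list (mean log2 level -0.24 relative to control), and high for Dgcr8 (13.4 CPM). Mouse 1 was high for Cfhr2 (520 CPM), Spp1 (677 CPM) and Trem2 (24.0 CPM) and apart for Icos (1.18 CPM). Mouse 2 was apart for Crp (388 CPM) and for the intestinal epithelium list (0.48). Mouse 3 was high for the shares of Rn18s-rs5 (15.0% of counts) and Lars2 (1.71%). The change with siLuc-LNP differed between CCl4 and uninjured mice for Rpa2 (-1.88 on the log2 scale). That call was lost whichever control or siLuc-LNP mouse was left out, without CCl4 mouse 2, and without CCl4 + siLuc-LNP mouse 2 or 3.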

How the results depend on the processing

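With 2 CCl4 mice, the number of calls depended on the method, and which genes passed is given above. Against 35 calls (77.1% of them lower), DESeq2 gave 295 (54.6% lower), limma-voom with quality weights 175 (86.3% lower) and no low-count filter 427 (48.0% lower). Fits of the compared groups alone gave 1, fits of the 4 CCl4 groups 2, and 20 of the 35 had changed at least 2-fold. Leaving out 1 mouse gave 7 to 1062 calls (lowest without particle mouse 3, highest without particle mouse 4), and 25% of the calls were lower without CCl4 mouse 2. A lone CCl4 mouse was assumed to vary like the other groups. In uninjured mice (30 calls) the numbers were 67, 84, 143 and 12 for DESeq2, limma-voom, no filter and the compared groups alone, and 14 to 28 with 1 mouse left out. For the difference (1 call) they were 39 with DESeq2, 7 with limma-voom, 197 with no filter and 0 to 247 with 1 mouse left out. With filterByExpr and with the compared groups alone the edgeR fits gave 0, with 1537 and 919 genes at an unadjusted p under 0.05. The cause of these changes was not tested. Scaling by DESeq2 size factors gave 37, 30 and 1 calls.

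The replicate numbers do not mark shared animals, and same-numbered mice of the 2 CCl4 groups did not deviate together (correlations -0.0418 and -0.267). A replicate block gave 17 calls with CCl4, 21 without, and 0 for the difference (1347 at an unadjusted p under 0.05).

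No called gene changed sign. Log2 fold changes of uncalled genes that did so with 1 mouse left out ran from -1.86 to 0.068 for Cav1, -1.12 to 0.17 for Col6a2, -0.76 to 0.10 for Smtn, -0.88 to 0.078 for Gzma, -0.24 to 0.81 for Cela1, -0.10 to 0.68 for Krt20, -0.17 to 0.26 for Trem2, -0.36 to 0.34 for Col3a1 and -0.12 to 0.12 for Bst2. With limma-voom the sign turned for 3 genes (Krt20: log2 fold change -0.00493), with Col3a1 at -0.11 and Bst2 at 0.049, and Bst2 was 0.0043 and 0.0034 in fits of the compared groups and of the 4 CCl4 groups. Of 16 lists whose median was at least 0.3 from 0, 3 changed sign under some setting, namely collagen chains, hepatocytes and smooth muscle. Genes of few counts, such as Has2, could not be compared at this depth.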

Other observations

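Of the 12 that rose in siLuc-LNP against control mice, 3 are given here. Cx3cr1, the fractalkine receptor of monocytes, was 0.695 to 2.82 CPM in control and 18.7, 11.3 and 7.60 CPM in siLuc-LNP mice (2.94, SE 0.374, adjusted p = 0.000167). Ccr1, a chemokine receptor of myeloid cells, was 0.413 to 0.769 CPM against 4.92, 2.11 and 2.24 CPM (2.41, SE 0.419, adjusted p = 0.00542). Gdf3, a ligand of the TGF-beta family, had 1 count over the control and 62 over the siLuc-LNP mice, a ratio of 90.6 (95% counting interval 15.7 to 3636). In CCl4 + siLuc-LNP against CCl4 mice the log2 fold changes of these 3 genes were 0.36, 0.49 and 0.85, and none passed. These genes were chosen after their values were seen.

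Of the 18 that fell without CCl4, Cxcl13, a chemokine for B cells, had 198 counts over the control and 2 over the siLuc-LNP mice, a ratio of 67.7 (interval 18.5 to 563). Its log2 fold change with CCl4 was -0.72 (adjusted p = 0.737). C9, the last subunit of the membrane attack complex, was 232 to 265 CPM in control and 103, 112 and 101 CPM in siLuc-LNP mice (-1.26, SE 0.269, adjusted p = 0.0449), against -0.15 with CCl4. Gpt2, a mitochondrial alanine transaminase, fell by 1.41 (SE 0.198, adjusted p = 0.000531), and Colec12, a scavenger receptor of endothelium, by 1.31 (SE 0.195, adjusted p = 0.000905). With CCl4 these were -0.42 and -0.52 and did not pass.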
